A study of Mus musculus with 13 samples.

Results

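Common lymphoid progenitors (CLPs) leave the bone marrow and seed the thymus with the help of a small set of surface receptors. The 8 receptor genes described here are Ccr9, Ccr7, Cxcr4, Selplg, Itga4, Itgb1, Itgb7, and S1pr1, and they were chosen by name from a table of 24972 genes. RNA was measured in 13 libraries of CLPs sorted from the bone marrow of adult C57BL/6 mice, 6 to 12 weeks of age, as DAPI-/Lin-/Sca1Lo/cKitLo/CD127+/CD135+ cells. The 5 WT libraries (1, 2, 3, 10, and 11) came from mice with both Notch1 alleles intact. The 5 Notch1+/- libraries (4, 5, 6, 12, and 13) came from mice that lack 1 Notch1 allele in all cells, and the 3 Notch1+/dTAD libraries (7, 9, and 14) from mice in which 1 Notch1 allele lacks the region that activates transcription, a product that still competes with the WT protein for its binding sites. Either mutant allele is carried by every cell of the mouse, so differences between sorted CLPs need not arise within CLPs.

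The receptors act in sequence. PSGL-1, the product of Selplg, binds selectins and slows a cell on the vessel wall. The chemokine receptors CCR9, CCR7, and CXCR4 signal through inhibitory G proteins, and CXCR4 in particular holds progenitors in the marrow near stromal cells that make its ligand CXCL12. Integrins are pairs of an alpha and a beta chain, and the alpha4 chain of Itga4 joins either the beta1 chain of Itgb1, to bind VCAM-1, or the beta7 chain of Itgb7, to bind MAdCAM-1. S1PR1 senses sphingosine-1-phosphate and guides lymphocytes out of tissues into blood. PSGL-1, CCR9, and CCR7 are known for their part in progenitor entry into the thymus.

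The values are TPM, a level per transcript length in which the values of each library sum to 1000000. They were made from reads of transcript 3′ ends, and the number of reads behind each value is unknown. The libraries listed 2818 to 4736 genes at 1 TPM or more, with 3179 to 3855 in WT, 2818 to 4736 in Notch1+/-, and 3984 to 4663 in Notch1+/dTAD libraries. A value of 0 is therefore given here as listed at 0 and not as absence. Rac1, a GTPase that nearly all cells use, was itself listed at 0 in library 4 and at 0.216 TPM in library 3. The genes of the sort showed the same gaps. Flt3 (CD135) was above 0 in all 13 libraries, at 5.21 TPM in library 6 and at 40.6 to 282 TPM in the others. Il7r (CD127) was listed at 0 in library 6 and at 1.07 to 184 TPM in the others. Kit was at 1 TPM or more in 6 libraries and Ly6a (Sca1) in 5. Notch1 itself was at 0 to 25.7 TPM in WT, 9.27 to 78.5 TPM in Notch1+/-, and 0.893 to 35.0 TPM in Notch1+/dTAD libraries, so its level did not separate the genotypes and gave no check of the labels.

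Ccr9 is the receptor for CCL25, a chemokine of thymic epithelium, and both Notch signaling and E proteins are known to act on its transcription in early T lineage cells. Because it stayed below 1 TPM in every WT library and was at 10.2 TPM or more in 6 mutant libraries, the 250 bases before its RefSeq start (GRCm38.p6, chr9:123766961-123767210, plus strand) are shown, with the E box CAGGTG in capitals. This start lies inside the longer span that GENCODE gives Ccr9. The window of Cxcr4, the member listed at 1 TPM or more in the most libraries, is shown beside it (chr1:128592300-128592549, minus strand).
Ccr9: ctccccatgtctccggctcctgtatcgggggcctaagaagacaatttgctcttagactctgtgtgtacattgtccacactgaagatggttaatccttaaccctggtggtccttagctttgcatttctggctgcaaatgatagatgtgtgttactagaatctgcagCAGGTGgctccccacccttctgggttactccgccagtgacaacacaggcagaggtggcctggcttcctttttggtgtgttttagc
Cxcr4: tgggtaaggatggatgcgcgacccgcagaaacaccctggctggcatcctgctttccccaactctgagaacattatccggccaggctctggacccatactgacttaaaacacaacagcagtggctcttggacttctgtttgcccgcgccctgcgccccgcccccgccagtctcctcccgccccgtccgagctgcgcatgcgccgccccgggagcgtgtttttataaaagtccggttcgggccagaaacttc
The RefSeq table held such windows for 5 of the 8 members, Cxcr4, Itga4, Itgb1, Ccr9, and Itgb7. These strings were searched on both strands. The E box CAGGTG stood in 17.2% of 32851 windows of 250 bases and in 1 of the 5 members, Ccr9, starting 85 bases before the start. The E box CAGCTG, which never matches the same bases as CAGGTG, stood in 13.0% of windows and in 1 member, Itga4. TGGGAA, the core of the site bound by the Notch partner RBPJ, stood in 21.6% of windows and in 0 of the 5 members. A match is a description of these letters and not a bound site, and these windows leave out distant elements.

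Ccr9 was at or near 0 in WT CLPs and at 10.2 TPM or more in most mutant libraries. In the WT libraries it was listed at 0.193 TPM (library 1), 0.0649 TPM (library 3), and 0 in libraries 2, 10, and 11. In Notch1+/- libraries it was at 60.5, 15.1, 74.9, 0, and 17.3 TPM (libraries 4, 5, 6, 12, and 13). In Notch1+/dTAD libraries it was at 60.3, 0, and 10.2 TPM (libraries 7, 9, and 14). Thus 0 of 5 WT libraries reached 1 TPM, against 4 of 5 Notch1+/- and 2 of 3 Notch1+/dTAD libraries, but library 12 and library 9 were listed at 0, so both mutant ranges overlapped that of WT. In bulk RNA, fewer cells that express a gene and less RNA per cell cannot be told apart. Where it was above 1 TPM, Ccr9 ranked above 28.1% to 62.0% of the genes listed above 0 in the same library.

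With so few libraries at 1 TPM or more, Ccr9 did not reach the minimum level for limma in the comparison of either mutant with WT. Fitted over all genes listed above 0, the difference of mean log2(TPM + 1) from WT was 4.01 (SE 1.40) for Notch1+/- and 3.07 (SE 1.45) for Notch1+/dTAD, with limma adjusted p-values of 0.709 and 0.778. Both depended on the pseudocount, at 6.24 and 4.86 with 0.1 and at 1.73 and 1.27 with 10, and the second was 1.68 without library 7 and 4.65 without library 9. The exact permutation p for Notch1+/- against WT was 0.0476 (n = 5 and 5, 2-sided), and 0.00794 to 0.0476 when 1 library was left out in turn. The lowest was without library 12, which listed Ccr9 at 0, and is the smallest p that the remaining 126 splits allow. For Notch1+/dTAD against WT it was 0.107 (n = 3 and 5), where 0.0179 is the smallest p that the design allows. It was 0.0476 without library 9, the smallest p that the remaining 21 splits allow. Without library 7 or without library 14 it was 0.286. Adjusted over all genes listed above 0, both exact permutation p-values were 1. Between the mutants, where Ccr9 was tested, the difference was -0.94 (SE 1.84, Notch1+/dTAD minus Notch1+/-) with a limma adjusted p of 0.997, and it was 0.64 without library 9.

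After these values were seen, all 8 mutant libraries were also set against the 5 WT libraries, a comparison that gives no independent support. The difference for Ccr9 was 3.66 on the log2(TPM + 1) scale (SE 1.29, 95% interval 0.96 to 6.36), with an unadjusted limma p of 0.0104 and an adjusted p of 0.719. The exact permutation p was 0.0210 (n = 8 and 5), and 0.914 adjusted over all genes tested. Ccr9 entered this test through mutant libraries alone, since no WT library reached the minimum of 1 TPM, so it could only be tested if it was higher in mutants. Of the 4307 genes tested, 3.99% had an unadjusted p under 0.05 and higher values, and 0 genes (0%) passed after adjustment.

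Ccr9 is also a gene of plasmacytoid dendritic cells, and the markers of that cell type were listed in all genotypes. Of 12 such genes other than Ccr9, 10 were above 0 in at least 1 library. Their summed level was 1349 to 4287 TPM in WT, 1464 to 4169 TPM in Notch1+/-, and 1394 to 4283 TPM in Notch1+/dTAD libraries. The highest levels in this sum were those of Cox6a2 (18.8 to 3165 TPM over all libraries), Bst2 (9.51 to 1411 TPM), and Irf8 (300 to 1389 TPM). The sum thus mainly follows these genes. Library 3, with a sum of 4287 TPM, listed Ccr9 at 0.0649 TPM. Bst2 was at 50.4 TPM in library 6, which had the highest Ccr9 level, and at 1411 TPM in library 3. Other markers ran differently. Cox6a2 was highest in library 6, at 3165 TPM. Siglech was highest in library 7, at 489 TPM, but at 4.55 TPM in library 14, and both libraries listed Ccr9 above 1 TPM. The sum was 4169 TPM in library 6 and 4283 TPM in library 9, which listed Ccr9 at 0. Irf7, an interferon regulator, was above 0 in libraries 4, 6, and 13, which also listed Ccr9, and at 0 in libraries 5, 7, and 14, which listed Ccr9 as well. The part of such cells in the Ccr9 values was not tested. Of 12 T and NK genes, 8 were listed at 0 in all 13 libraries, among them Cd3e, Cd3g, Cd8a, Ncr1, and Klrb1c. The list summed to 1.15 to 1417 TPM in WT, 0 to 560.2 TPM in Notch1+/-, and 93.8 to 436 TPM in Notch1+/dTAD libraries. Lck, a kinase of T cell receptor signaling, was at 202.5, 560.2, 154, 128, and 93.8 TPM in libraries 4, 6, 13, 7, and 14, in which Ccr9 was above 1 TPM, but at 0 in library 5. It was also at 164 and 108 TPM in WT libraries 1 and 10 and at 174 TPM in library 9, which had Ccr9 below 1 TPM. Nkg7 was at 1122 TPM in library 10 and 262 TPM in library 9, with Ccr9 at 0. In libraries 4 and 7, with Ccr9 above 1 TPM, Nkg7 was at 36.7 and 9.09 TPM. Cd4 was at 106 and 187 TPM in WT libraries 2 and 10, with Ccr9 at 0, and at 0 in the others. The part of T or NK cells in the Ccr9 values was not tested.

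Ccr7, the receptor for CCL19 and CCL21, varied widely between libraries of each genotype. It was at 32.3 TPM in WT library 3, 40.4 TPM in library 11, and 0 in the other WT libraries. In Notch1+/- libraries it was at 30.6 TPM (library 5), 29.8 TPM (library 12), and 0 in libraries 4, 6, and 13. All 3 Notch1+/dTAD libraries listed it, at 90.2, 0.602, and 20.9 TPM (libraries 7, 9, and 14). The highest value was in Notch1+/dTAD library 7, but the ranges overlapped in every comparison. The difference of mean log2(TPM + 1) for Notch1+/dTAD was 1.79 against WT (SE 2.14) and 1.90 against Notch1+/- (SE 2.09), with limma adjusted p-values of 0.996 and 0.997. They were 0.48 and 0.58 without library 7 and 3.40 and 3.50 without library 9. Ccr7 was below the minimum in Notch1+/- against WT, where the difference was -0.10. At 1 TPM or more, Ccr9 or Ccr7 was listed in 2 of 5 WT, 5 of 5 Notch1+/-, and 2 of 3 Notch1+/dTAD libraries. Both together were at that level in libraries 5, 7, and 14, which also listed Selplg.

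Cxcr4 was at 1 TPM or more in 11 of 13 libraries. In WT it was at 0, 116, 138, 54.3, and 40.8 TPM (libraries 1, 2, 3, 10, and 11). In Notch1+/- it was at 0, 111, 101, 88.7, and 190.1 TPM (libraries 4, 5, 6, 12, and 13), and in Notch1+/dTAD at 81.9, 106, and 60.2 TPM (libraries 7, 9, and 14). Apart from library 1 and library 4, the values spanned 40.8 to 190.1 TPM and the genotypes overlapped throughout. The differences of mean log2(TPM + 1) were 1.32 (SE 1.67) for Notch1+/dTAD against WT, 0.48 (SE 1.74) for Notch1+/- against WT, and 0.84 (SE 1.83) between the mutants, with limma adjusted p-values of 0.993 to 0.997. Each rested on a library listed at 0. Without library 1 the first difference was 0.06 and the second -0.78, and without library 4 the third was -0.53.

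**Figure D1:**
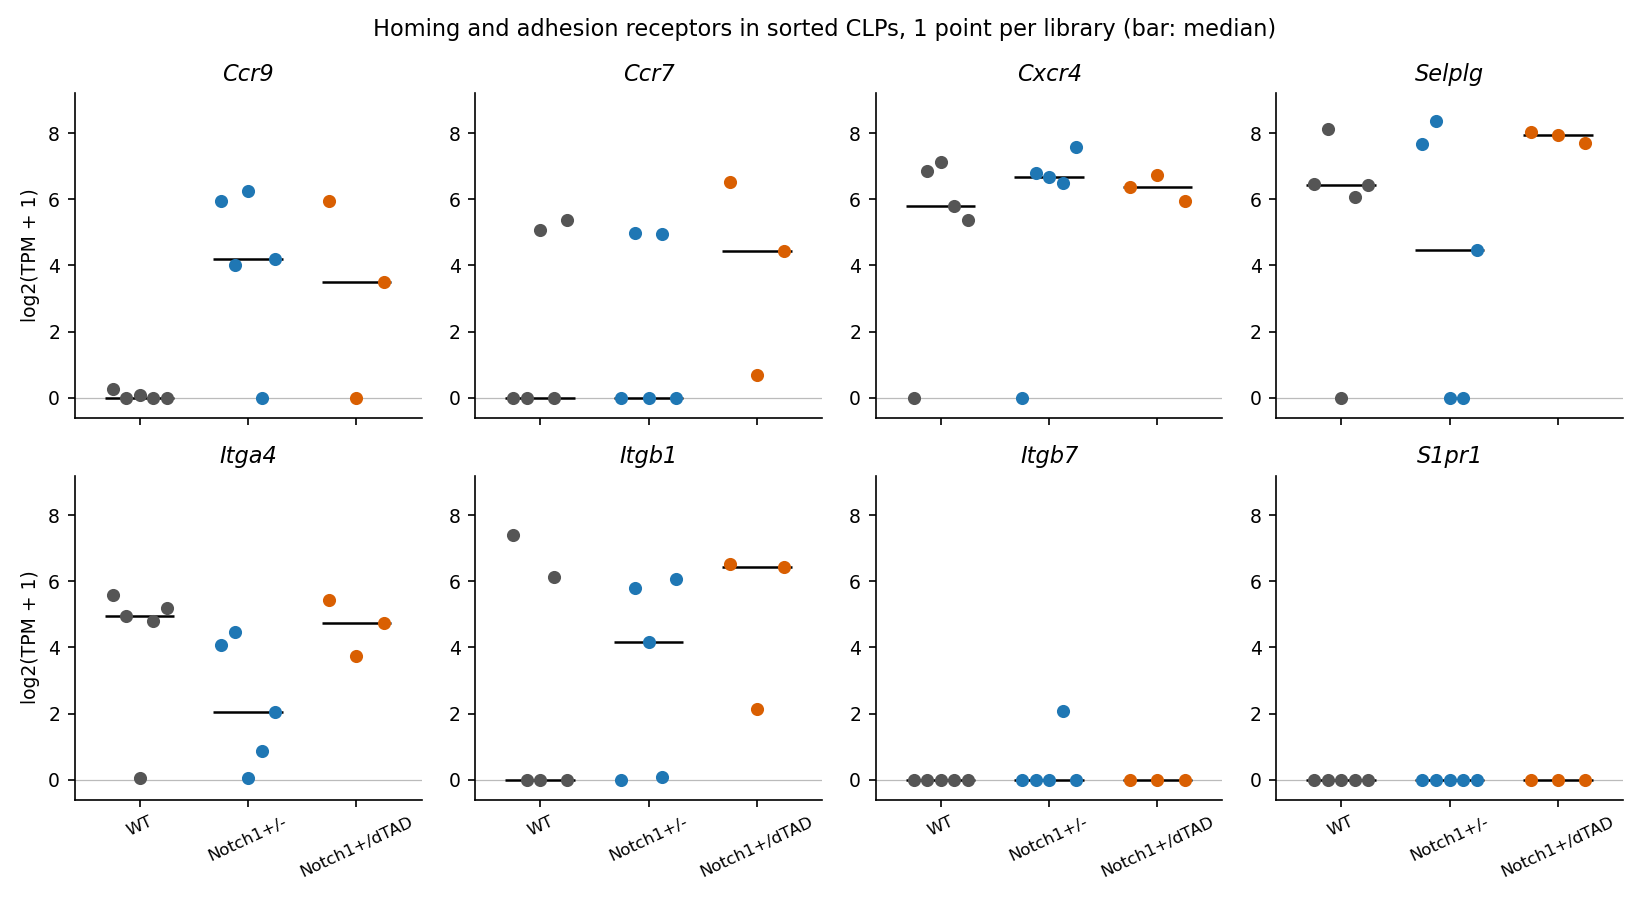
Level of each receptor gene, as log2(TPM + 1), in the 5 WT, 5 Notch1+/-, and 3 Notch1+/dTAD libraries, 1 point per library with a bar at the median. Ccr9 lies at or near 0 in the WT libraries and above it in 6 of 8 mutant libraries, Selplg and Cxcr4 each lie close together in the 3 Notch1+/dTAD libraries, and S1pr1 is at 0 throughout.

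Selplg was high and even in the 3 Notch1+/dTAD libraries and uneven in the other genotypes, but the spread was not tested. This was not particular to Selplg. For Cxcr4 the SD of log2(TPM + 1) was 0.40 in Notch1+/dTAD, against 2.90 in WT and 3.11 in Notch1+/-. Itga4 and Itgb1 also had their smallest SD in Notch1+/dTAD, whereas Ccr9 and Ccr7 had their largest there. The Notch1+/dTAD libraries listed it at 262, 246, and 208 TPM (libraries 7, 9, and 14). In WT it was at 87.4, 277, 0, 66.1, and 84.8 TPM (libraries 1, 2, 3, 10, and 11), and in Notch1+/- at 204, 330.1, 0, 0, and 20.9 TPM (libraries 4, 5, 6, 12, and 13). WT library 2 and Notch1+/- library 5 lay above all 3 Notch1+/dTAD values, so the ranges overlapped. The difference of mean log2(TPM + 1) was 2.48 for Notch1+/dTAD against WT (SE 1.61, 95% interval -0.97 to 5.94), with a limma p of 0.145 and an adjusted p of 0.952. Between the mutants it was 3.80 (SE 2.04, 95% interval -0.43 to 8.02), with a limma p of 0.0756 and an adjusted p of 0.967. The exact permutation p-values were 0.250 and 0.232 (n = 3 and 5 in each). For Notch1+/- against WT it was -1.31 (SE 2.02, limma adjusted p 0.993). Without WT library 3 the difference of Notch1+/dTAD from WT was 1.13, and that of Notch1+/- was -2.67.

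Itga4, the alpha4 chain, was above 0 in every library, the only member of which this held. It was at 47.3, 29.9, 0.0293, 26.9, and 35.8 TPM in WT (libraries 1, 2, 3, 10, and 11). In Notch1+/- it was at 15.8, 21.3, 0.0322, 0.829, and 3.11 TPM (libraries 4, 5, 6, 12, and 13), and in Notch1+/dTAD at 42.2, 12.5, and 25.5 TPM (libraries 7, 9, and 14). The 5 Notch1+/- values all lay below the WT values other than library 3, which overlapped them. The differences of mean log2(TPM + 1) were -1.82 (SE 1.58) for Notch1+/- against WT, 0.52 (SE 1.76) for Notch1+/dTAD against WT, and 2.34 (SE 1.81) between the mutants. The limma adjusted p-values were 0.993, 0.996, and 0.997. Without library 3 the exact permutation p for Notch1+/- against WT was 0.0397 (n = 5 and 4), the lowest of the values with 1 library left out, against 0.214 with all libraries (n = 5 and 5), and the difference of Notch1+/dTAD from WT changed sign to -0.50.

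Itgb1, the beta1 chain, was at 167 TPM in WT library 1, 68.8 TPM in library 10, and 0 in libraries 2, 3, and 11. In Notch1+/- it was at 0, 54.1, 16.9, 0.0553, and 65.6 TPM (libraries 4, 5, 6, 12, and 13). In Notch1+/dTAD it was at 90.6, 3.43, and 85.2 TPM (libraries 7, 9, and 14), which lay within the WT range. The differences of mean log2(TPM + 1) were 2.33 (SE 2.30) for Notch1+/dTAD against WT, 0.51 (SE 1.97) for Notch1+/- against WT, and 1.81 (SE 2.22) between the mutants, with limma adjusted p-values of 0.984, 0.993, and 0.997. The first was 1.59 without library 7 and 3.77 without library 9, and 0.91 with a pseudocount of 10 and 4.21 with 0.1.

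The other beta partner of alpha4 and the egress receptor were nearly unlisted. Itgb7 was at 3.25 TPM in Notch1+/- library 12 and at 0 in the other 12 libraries. S1pr1 was at 0 in all 13 libraries. Neither reached the minimum level in any comparison, and without read counts no upper limit can be set for them. Both chains of the alpha4 and beta1 pair were at 1 TPM or more in 7 libraries, and in library 12, which alone listed Itgb7, Itga4 was at 0.829 TPM. Vcam1 and Madcam1, which encode the ligands of these integrins, and Cxcl12, the ligand of CXCR4, were listed at 0 in all 13 libraries.

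**Figure D2:**
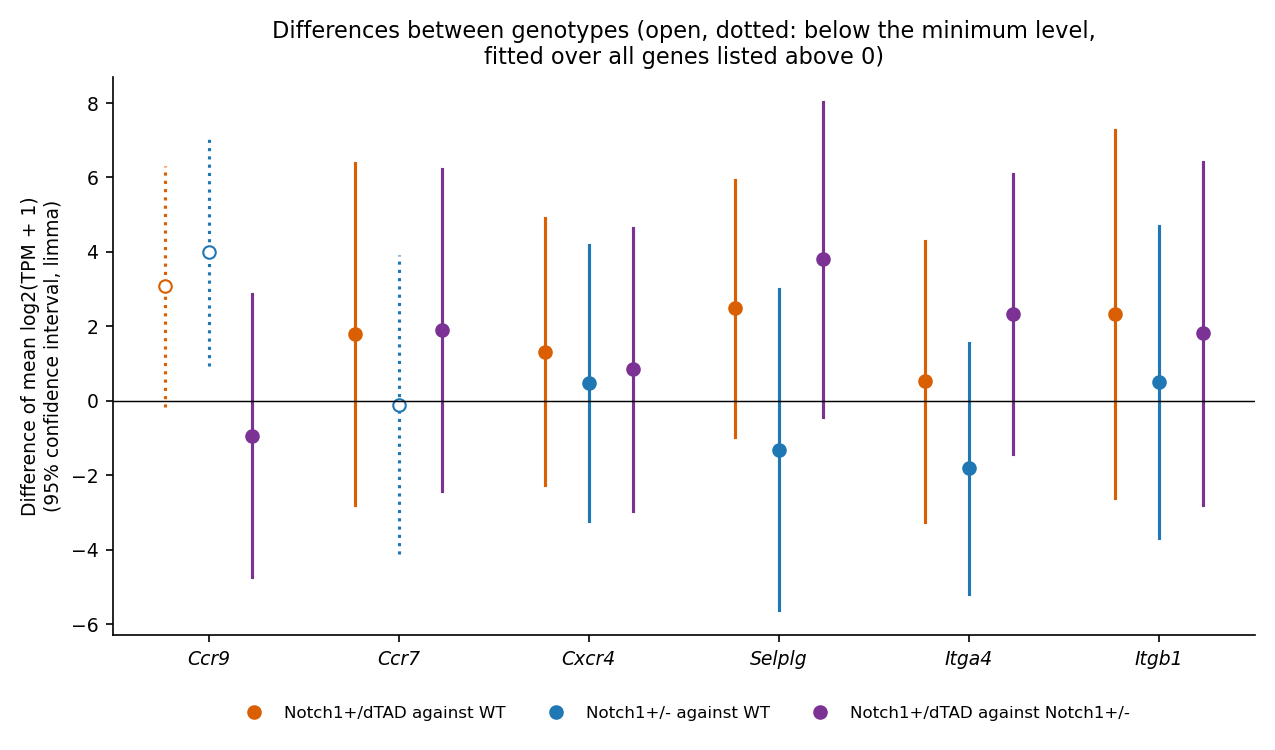
Differences of mean log2(TPM + 1) with 95% limma confidence intervals for the 6 members tested in at least 1 comparison. Open circles with dotted lines are members below the minimum level, fitted over all genes listed above 0. Of these 18 intervals, none adjusted for their number, that of Ccr9 in Notch1+/- against WT is the one that leaves out 0. Its limma adjusted p, fitted over all genes listed above 0, was 0.709.

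In limma tests across all genes, 0 members passed an adjusted p of 0.05 in any comparison of genotypes, and the same was true of all genes. By DESeq2 the authors reported differentially expressed genes between WT and Notch1+/dTAD CLPs, a test that could not be rerun without counts. The lack of calls here thus describes this test on TPM. In Notch1+/dTAD against WT, 5 members were tested among 4737 genes, of which 0 (0%) were called. All 5 had higher means in Notch1+/dTAD, with a median difference of 1.79, but the median of all genes was itself 0.47, and -0.02 after quantile normalization. None of the 5 had an unadjusted p under 0.05, against 4.14% of all genes for higher and 0.866% for lower values. In Notch1+/- against WT, 4 members were tested among 3178 genes, with 0 called (0%). Of these, 2 were higher and 2 lower, and 0 had an unadjusted p under 0.05, against 2.67% of genes in each direction. In Notch1+/dTAD against Notch1+/-, 6 were tested among 6281 genes, with 0 called (0%). Of these, 5 were higher and 1 lower, and 0 had an unadjusted p under 0.05, against 4.09% of genes for higher and 1.24% for lower values. Ranges without overlap between the genotypes were found for 0 members, against 3.12%, 0.787%, and 3.06% of the genes tested in the respective comparisons. Comparisons with WT share the same 5 WT libraries. With limma's prior variance held constant in place of a trend, 15, 2, and 3 genes were called in these comparisons, and 5 in Notch1+/dTAD against WT with all 13 libraries in 1 model, of which 0 were members. Exact permutation tests gave 174, 161, and 199 genes with an unadjusted p under 0.05, and 0 after adjustment.

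Ordered by median TPM over the 13 libraries, the members ran Cxcr4 (88.7), Selplg (87.4), Itga4 (21.3), Itgb1 (16.9), Ccr7 (0.602), Ccr9 (0.193), and then Itgb7 and S1pr1 (0). The ranges of the first 6 overlapped, and neighbors in this order changed places from library to library. Selplg was above Cxcr4 in 9 of 13 libraries and below it in 4. Selplg was above Itga4 in 10 libraries, and Itgb1 was above Itga4 in 7. Within the genotypes, the highest median was that of Selplg in WT (84.8 TPM) and Notch1+/dTAD (246 TPM) and that of Cxcr4 in Notch1+/- (101 TPM). In Notch1+/-, Ccr9 (17.3 TPM) stood after Cxcr4 and Selplg and above Itgb1 (16.9 TPM) and Itga4 (3.11 TPM). Since 3′ reads come from transcript ends whatever the length, the order was also taken on TPM multiplied by transcript length in kb. The length was that of the longest GENCODE coding transcript, which need not be the length used to make the TPM. That order placed Itga4, with a transcript of 9767 bases, first (208), and then Selplg (162) and Cxcr4 (160.2). On that scale Itga4 came first in WT (292, against 157 for Selplg), Selplg stayed first in Notch1+/dTAD (456), and in Notch1+/- Cxcr4 stayed first (182) with Ccr9 (90.0) next and Selplg (38.8) below it.

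Selplg and Itga4 were low in the same libraries. The 3 libraries with Selplg at 0, WT library 3 and Notch1+/- libraries 6 and 12, were those with Itga4 below 1 TPM. Over the 13 libraries the Pearson correlation of log2(TPM + 1) was 0.91 and the Spearman correlation 0.59, and over the 10 libraries with Selplg above 0 they were 0.48 and 0.10, so the relation rested on those 3 libraries. These points share library and depth. Library 6 also had the lowest Flt3 and Il7r levels, whereas library 12 had 180.3 TPM of Flt3 and library 3 had 282 TPM. Cxcr4 was at 138, 101, and 88.7 TPM in libraries 3, 6, and 12, and its Spearman correlation with Itga4 was -0.56. Selplg, Cxcr4, and Itga4 together were at 1 TPM or more in 3 of 5 WT, 2 of 5 Notch1+/-, and 3 of 3 Notch1+/dTAD libraries, and with Itgb1 added in 1, 2, and 3 libraries. Counted per library, WT libraries held 2 to 4 members at 1 TPM or more, Notch1+/- libraries 3 to 6, and Notch1+/dTAD libraries 4 to 6. The lowest number of genes listed was also higher in Notch1+/dTAD than in the other genotypes, as given above, and its part in these counts was not tested.

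**Figure D3:**
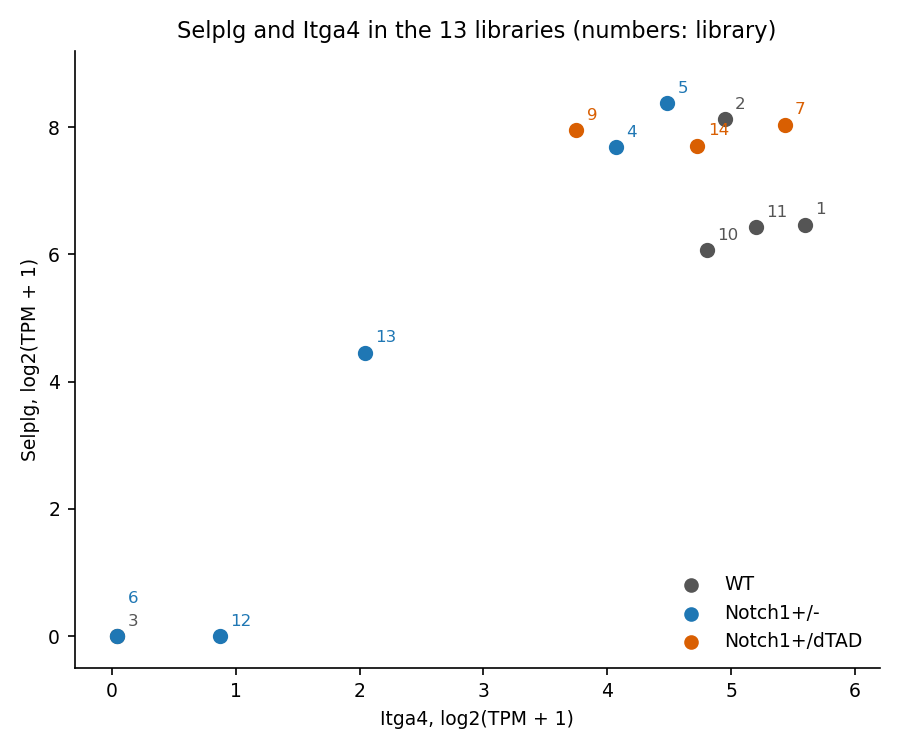
Selplg against Itga4, both as log2(TPM + 1), in the 13 libraries, colored by genotype and marked with the library number. Libraries 3 and 6 lie on the same point near 0 with library 12 beside them, and library 13 lies between them and the other 9 libraries.

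Among 2422 genes at 1 TPM or more in at least 8 libraries, those most like each member by Spearman correlation over the 13 libraries were as follows, as a description of points that share library and depth. For Cxcr4 they were Tagln2 (0.81) and Ncbp2 (0.80). For Selplg they were Ing3 (0.83) and Pou2f2 (0.80). Laptm4a and Atic (0.80 each) were nearest to Itga4, and 2900097C17Rik (0.88) and Mbd4 (0.81) to Itgb1. They were picked as the highest of 2422 genes over 13 libraries, so high correlations follow in part from the choice. No relation was tested.

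Other trafficking genes were listed by role, 107 in all, of which 34 were at 0 in every library and 22 at 1 TPM or more in at least 8 libraries. The machinery behind the receptors was the most widely listed group, with 9 of 17 chemokine receptor signaling genes at 1 TPM or more in at least 8 libraries. Gnai2, which encodes the G protein alpha subunit that chemokine receptors couple to, was at 379 to 1401 TPM. Integrin activators such as Tln1 (36.6 to 140 TPM), which binds integrin beta tails, and Rasgrp2 (55.1 to 690 TPM), an exchange factor for RAP1, were also above 1 TPM in all libraries. By contrast, 1 of 17 other chemokine receptors, Cx3cr1, and 1 of 17 other integrin subunits, Itgal, reached that frequency, and in the sphingosine-1-phosphate group 0 of 12 did.

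Tested with limma, 0 of these genes passed after adjustment in any comparison. In Notch1+/dTAD against WT, 36 were tested, 20 higher and 16 lower, with a median difference of 0.16 against 0.47 for all genes, and 1 (2.78%) had an unadjusted p under 0.05, against 5.00% of all genes. This was Grk6, a kinase that phosphorylates chemokine receptors. Grk6 was listed at 0 in all 5 WT libraries and at 45.8, 1.30, and 75.8 TPM in Notch1+/dTAD libraries 7, 9, and 14, a difference of 4.34 on the log2(TPM + 1) scale (SE 1.37, limma p 0.00709, adjusted p 0.590). In Notch1+/- libraries it was at 0.583 TPM in library 4 and 0 in the others, and between the mutants the difference was 4.21 (SE 1.15, limma p 0.00139, adjusted p 0.642). Grk6 met the minimum through the 3 Notch1+/dTAD libraries alone and was named for its small p, so that the ranges did not overlap in either comparison follows in part from how it was chosen.

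Between the mutants, 48 were tested, 25 higher and 23 lower in Notch1+/dTAD, with a median of 0.07 against 0.35 for all genes. In all, 6.25% (Grk6, Dock2, and Gnai3) had an unadjusted limma p under 0.05, against 5.33% of all genes. Dock2, which activates RAC downstream of chemokine receptors, was at 20.4 to 140 TPM in Notch1+/dTAD and at 0 to 17.3 TPM in Notch1+/- libraries (adjusted p 0.932), but at 0 to 119 TPM in WT. Gnai3, a second inhibitory G protein subunit, was at 0.681 to 30.8 TPM in Notch1+/dTAD and 0 in all Notch1+/- libraries (adjusted p 0.932), but at 0 to 43.4 TPM in WT. Gnai2 lay lower, at 379 to 716 TPM in Notch1+/dTAD against 735 to 1297 TPM in Notch1+/-, without overlap but with a limma adjusted p of 0.997. Fut7, which adds the fucose that PSGL-1 needs to bind selectins, was listed in libraries 5, 9, and 14 alone, at 144, 152, and 222 TPM, where Selplg was at 208 TPM or more, but Fut7 was at 0 in libraries 2, 4, and 7, with Selplg at 277, 204, and 262 TPM.

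In Notch1+/- against WT, 25 were tested, 10 higher and 15 lower, with a median of -0.08 against 0.06 for all genes, and 0 had an unadjusted p under 0.05. The smallest p was that of Cdc42, a GTPase of cell polarity, at 3.56 to 308 TPM in Notch1+/- against 181 to 491 TPM in WT (difference -2.26, SE 1.14, limma p 0.0656, adjusted p 0.921). Next was Rap1a, a GTPase that switches integrins on, at 0 to 42.8 TPM against 0 to 12.1 TPM (adjusted p 0.978).

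Some receptor genes lie over other genes. In the GENCODE annotation of GRCm38, Ccr9 (chr9:123678439-123784330, plus strand) overlaps Gm17020 and Gm17200 on the same strand and Lztfl1, Slc6a20a, Gm10052, and AC165425.1 on the other. Gm17020, Gm17200, and AC165425.1 have no values here, and reads in the same-strand overlaps may be shared whatever the strand setting. Gm10052 was at 199 TPM in library 7 and 0 in the others, and Lztfl1 was above 0 in 6 libraries at up to 10.9 TPM, of which libraries 4 and 13 listed Ccr9 above 1 TPM. Itga4 (chr2:79255426-79333123, plus strand) overlaps Cerkl, which was at 125 TPM in library 12 and 0 in the others. The library kit keeps strand, but whether strand was used in counting is not given in the sources used here, so reads in overlaps with genes on the other strand may be shared too.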

How the data were processed

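RNA of sorted CLPs was made into strand-specific 3′ libraries in 1 batch per the labels. The authors trimmed the reads and aligned them to mm10 with STAR, and deposited TPM in 2 tables that hold the same WT values. The annotation and the tool that made the TPM are not given in the sources used here, and the authors' DESeq2 test could not be rerun without counts. TPM divides by transcript length, although 3′ reads do not depend on it.

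Groups were taken from the genotype in the sample titles. Genes were kept where the number of libraries at 1 TPM or more was at least the size of the smaller group, and were tested on log2(TPM + 1) with limma 3.58.1 (R 4.3.3, eBayes with trend, 2-sided) and Benjamini-Hochberg adjustment over all of them, with a threshold of 0.05. The mutants were contrasted in 1 model of all 13 libraries. Exact permutation tests of the difference of means ran over libraries, for every gene. A difference of log2(TPM + 1) understates the change of low genes. Alternatives were pseudocounts of 0.1 and 10, no minimum, a minimum mean of 10 TPM, eBayes without trend, quantile normalization, median-ratio scaling, 1 model of all libraries, the 8 mutant libraries alone for their contrast, a covariate that sets libraries 1 to 9 apart from libraries 10 to 14, and leaving out each library. The code was tested on simulated data. CLPs were sorted per mouse, but the labels do not say that each library is a separate mouse, and p-values measure only the spread between libraries.

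The members, the lists, and the comparison of both mutants with WT were chosen with earlier results of these data known. Genes named beyond the members were the trafficking genes with the smallest limma p in each comparison, the sort genes, the genes most correlated with a member, and markers at 0 in all libraries or moving with a member. Rac1, Tln1, Rasgrp2, Rac2, Coro1a, Cx3cr1, Itgal, Vcam1, Madcam1, Bst2, Cox6a2, Irf8, Siglech, Nkg7, and Cd4 were named after their values were seen. Other marker lists gave summed levels that overlapped between genotypes, namely B lineage (117 to 2043 TPM over all libraries), myeloid (366 to 2461 TPM), and T and NK genes (0 to 1417 TPM). Of erythroid genes 10 of 12, of megakaryocyte and platelet genes 8 of 9, and of stroma and endothelium genes 7 of 10 were at 0 in all libraries.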

Additional observations from a re-analysis of the deposited data

Results flagged for a closer look

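Itgb7 in Notch1+/- library 12, at 3.25 TPM, lay far from the other 4 Notch1+/- libraries, all listed at 0, by Dixon's ratio. It was the only 1 of 13 groups of 5 values so marked, where chance marks about 1 in 20. The rate applies to normally distributed values and not to groups that are mostly at 0.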

How the results depend on the processing

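The number of members called was 0 in all 80 alternative fits. Of 640 alternative differences, 617 kept direction and call, or moved by less than the spread between libraries, 2 moved by more, and 21 of those tested changed sign, 17 of them with 1 library left out. Ccr7 in Notch1+/- against WT, below the minimum and not in that count, ranged from -0.85 to 0.72 and was above 0 without library 3, 4, 6, 11, or 13. No difference passed the threshold in any fit. Part of the 617 could not change. S1pr1 was listed at 0 in all libraries, and Itgb7 in all WT and Notch1+/dTAD libraries. Another minimum, eBayes without trend, and 1 model of all libraries leave the difference itself as it was. With quantile normalization, the difference of Itga4 in Notch1+/dTAD against WT was -0.54 and that of Selplg in both mutants against WT -0.10. With a pseudocount of 10, Itgb1 in Notch1+/- against WT was -0.017, and with a pseudocount of 0.1, Selplg in both mutants against WT was -0.056. With 1 library left out, differences in Notch1+/dTAD against WT ranged from -0.50 (without library 3) to 0.96 for Itga4. In Notch1+/- against WT they ranged from -0.78 (without library 1, and also below 0 without library 13) to 1.85 for Cxcr4, and from -0.20 (without library 13, and also below 0 without library 2, 3, 5, or 11) to 1.69 for Itgb1. Between the mutants they ranged from -2.33 to 0.64 (without library 9) for Ccr9 and from -0.53 (without library 4) to 1.36 for Cxcr4. In both mutants against WT they ranged from -0.46 (without library 1) to 1.63 for Cxcr4 and from -1.24 (without library 3, and also below 0 without library 4, 5, 7, 9, or 14) to 0.90 for Selplg. For the settings that kept all libraries, the cause was not tested. No paired analysis was possible because the labels used here give no pairing of libraries between genotypes. A covariate that sets libraries 1 to 9 apart from libraries 10 to 14, with all genotypes in each set, changed no sign and no call of the members tested. It was not applied to members below the minimum, among them Ccr9 in either mutant against WT. Depth is unknown, and no limit can be given for genes listed at 0.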
